A study of Mus musculus with 2 samples.

Results

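The genes of a set of very large muscle filament and scaffold proteins, Ttn, Neb, Nrap, Xirp1, Xirp2 and Flnc, were followed in long-read RNA sequencing of mouse gastrocnemius. They were chosen by gene name, as 6 of 15631 annotated genes with reads, and each of the 6 had reads in both libraries. Their reads were spread over 374 of 92223 transcript models in replicate 1 and 211 of 73027 in replicate 2. A transcript model is the set of reads that share a chain of introns. The study holds 1 group of 2 libraries, replicate 1 and replicate 2, from gastrocnemius of male B6CASTF1/J mice aged 10 days. The labels number the tissue samples as separate males but give them a shared donor record, so differences between the libraries may be between animals or technical. Mice of this name are the F1 cross of C57BL/6J and CAST/EiJ. No treatment or mutation is named in the labels, and each library was made from 2 µg of total RNA with spike-in RNA added.

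Titin, coded by Ttn, runs from the Z-disc to the M-band of the sarcomere and acts as its molecular spring, with ends that bind different partners. Nebulin lies along the thin filament and is anchored at the Z-disc. NRAP, built of nebulin repeats with a LIM domain, is an actin anchor of the myotendinous junction and of assembling myofibrils. Xin and its relative, coded by Xirp1 and Xirp2, are actin-binding repeat proteins of attachment sites and of damaged fibres, and filamin C, coded by Flnc, crosslinks actin at the Z-disc and binds Xin. The messages of titin and nebulin are among the longest in muscle, and much of what distinguishes muscle types in both is set by alternative exons.

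The libraries held 1145490 mouse reads in replicate 1 and 941841 in replicate 2, so 3 reads, the floor used here, stand for 2.62 and 3.19 CPM (counts scaled to the same total of mouse reads). All 8 skeletal fibre markers had reads and together made up 269175 CPM in replicate 1 and 263452 CPM in replicate 2. Of 8 cardiac markers only Myl4 and Myh6 had reads, 26.2 and 42.5 CPM in sum, while Nppa, Nppb, Myl7, Tnni3, Ryr2 and Mybpc3 had 0. Fibroblast and tendon markers, 6 of 6 with reads, added up to 8952 CPM in replicate 1, against 5353 CPM in replicate 2. Most of both sums was Col1a1, with 7947 and 4216 CPM. Pdgfra and Fmod were also higher in replicate 1, while Dcn, Tnmd and Lum were lower. The median log2 ratio of replicate 1 over replicate 2 was 0.02 over these 6 markers. Across all tested genes the ratio of the libraries moved with transcript length: the median log2 ratio of replicate 1 over replicate 2 was -0.28 in the shortest of 10 bins of reference length and 0.38 in the longest.

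The 6 genes together took 1336 reads in replicate 1 and 718 in replicate 2, 0.117% and 0.0762% of mouse reads. Nrap had the most, with 563 and 287 reads or 491 and 305 CPM. Ttn, whose protein is the largest of the set, followed with 317 and 120 reads or 277 and 127 CPM. Neb had 165 and 80 reads (144 and 84.9 CPM), and Flnc had 164 and 100 (143 and 106 CPM). These 4 genes were all higher in replicate 1. Xirp1 had 80 and 74 reads, 69.8 and 78.6 CPM. Xirp2 had the fewest, 47 and 57 reads or 41.0 and 60.5 CPM, and both Xin genes were lower in replicate 1. In a bulk sample, fewer cells of a type and less RNA per cell cannot be told apart.

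**Figure D1:**
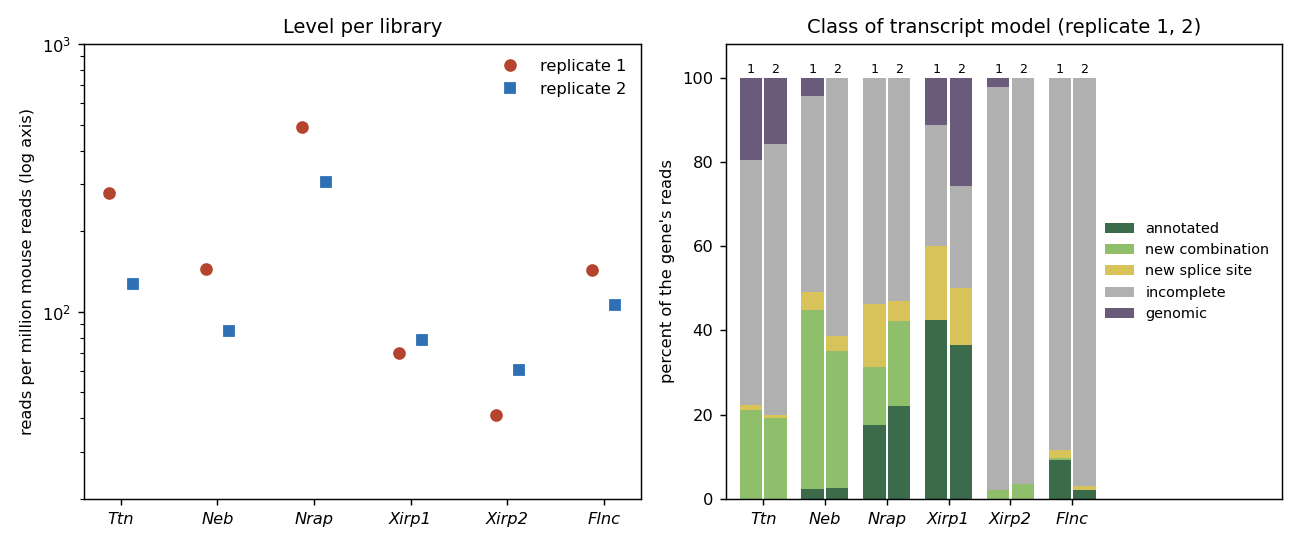
Left, CPM of each gene in replicate 1 (circles) and replicate 2 (squares) on a log axis. Right, the share of each gene's reads in each class of transcript model, as bars labelled 1 and 2 by replicate. Nrap is the highest gene in both libraries, and Ttn and Xirp2 have no annotated complete model.

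Scaled by the length of the longest annotated transcript, Nrap stood above the others at 89.3 and 55.4 CPM per kb. Flnc with 15.8 and 11.7 CPM per kb and Xirp1 with 12.0 and 13.5 overlapped, as did Neb with 6.41 and 3.78 and Xirp2 with 3.43 and 5.05. Ttn was the lowest of the 6 per kb, at 2.59 and 1.19. A long read covers 1 molecule once, so on this scale a long transcript is divided by bases that few of its reads reached.

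Replicate 1 was compared with replicate 2 by an exact two-sided binomial test over 7516 genes, which compares these libraries and no conditions. Calls needed a Benjamini-Hochberg adjusted p under 0.05 and a 2-fold difference, and 2.75% of all genes were called. Ttn was the 1 member of 6 called, with a log2 ratio of 1.12 (adjusted p = 4.41e-12). Nrap at 0.69 (adjusted p = 1.69e-09) and Neb at 0.76 (adjusted p = 0.00204) had low p-values but differed by less than 2-fold. Flnc at 0.43 (adjusted p = 0.134), Xirp1 at -0.17 (adjusted p = 0.782) and Xirp2 at -0.56 (adjusted p = 0.244) did not pass. The median log2 ratio was 0.56 over the 6 genes, against 0.01 over all tested genes and 0.34 over the 1318 tested genes with a reference of 5000 nt or more. Measured against the median of its own length bin, Ttn differed by 0.74 (adjusted p = 5.71e-05), under 2-fold, and no member was called. Among the others Xirp2 differed most from its bin, at -0.94 (adjusted p = 0.0217). The part of the fibroblast markers in these differences was not tested.

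The genes most like each member in level, library ratio and share of incomplete reads were then listed, over these 2 libraries. For Ttn they were the collagens Col5a3 (153 and 68.0 CPM) and Col5a2 (140 and 76.4 CPM). For Nrap they were the fast myosin Myh2 (814 and 530 CPM) and the basement membrane collagen Col4a2 (603 and 417 CPM). Neb lay nearest Tmem161a (132 and 79.6 CPM) and the cartilage matrix gene Cilp (113 and 71.1 CPM). Xirp1 lay nearest the muscle kelch gene Klhl31 (62.9 and 71.1 CPM) and the histidyl-tRNA synthetase gene Hars (52.4 and 63.7 CPM). Xirp2 lay nearest the tetraspanin gene Tspan12 (36.7 and 53.1 CPM) and Bud23 (45.4 and 48.8 CPM). The cadherin gene Cdh13 (243 and 201 CPM) was among the nearest to Flnc.

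Genes of the same families and of the pathways around these proteins were counted in the same test, against the 2.75% called of all genes. Of 12 gene names listed for related families, 10 had reads, 9 could be tested and 2 were called, both higher in replicate 1. The called genes were the cytoskeletal adaptor gene Obsl1 with 45 and 15 reads, and the actin-bundling supervillin gene Svil with 106 and 40. The 2 highest genes of this list were Myot (698 and 1144 CPM) and Mypn (233 and 120 CPM), both of the Z-disc, and its median log2 ratio was 0.87. Among 15 genes of nebulin and thin filament length 1 was called, the actin nucleator gene Lmod2, lower in replicate 1 with 34 reads against 56. None was called among 16 tested titin ligands, 16 filamin C and Xin partners, 13 junction partners or 12 splicing regulators, whose median log2 ratios lay between 0.00 and 0.31. The highest of the titin ligands were Mybpc2 (5955 and 3743 CPM) and Actn2 (2803 and 3043 CPM). Rbm24 and Mbnl2, regulators of muscle splicing, led their list, and Rbm20, which controls titin splicing in heart, had 55 and 46 reads. The 2 highest genes of the other lists were Acta1 and Tpm1 for the thin filament, Des and Myoz1 for filamin C and Xin partners, and Itgb1 and Itga7 for junction partners.

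The reads covered these genes to very different extents. The deposited classes call a read annotated if its introns match a known transcript whole, and incomplete if they match a part of one. Incomplete reads made up 95.7% and 96.5% of Xirp2, 88.4% and 97.0% of Flnc, and 58.0% and 64.2% of Ttn. In Nrap they were 53.6% and 53.0%, in Neb 46.7% and 61.2%, and in Xirp1 28.8% and 24.3%. All 6 lay above the median gene, which had 4.17% in replicate 1 and 3.70% in replicate 2, and above the median of 10.0% and 8.70% among genes with a reference of 5000 nt or more. By Fisher's exact test over 4697 genes, 0 of 6 members differed between the libraries with a call, where 1.26% of genes were called. The nearest was Flnc, lower by 8.59 points in replicate 1 with an adjusted p of 0.369, and 2 of the 6 had an unadjusted p under 0.05.

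Reads of the annotated class were rare or absent in several of the genes. Ttn and Xirp2 had 0 such reads in either library, which allows up to 3 reads per library. Flnc had 15 and 2, Xirp1 34 and 27, and Nrap 99 and 63. Neb had 4 and 2, all of Neb-204, a short transcript of 10 exons and 1000 nt, and no read matched a full-length nebulin. Models end where 1 alignment set them, so the place of a read's start is known at best to the exon and not to the base.

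**Figure D2:**
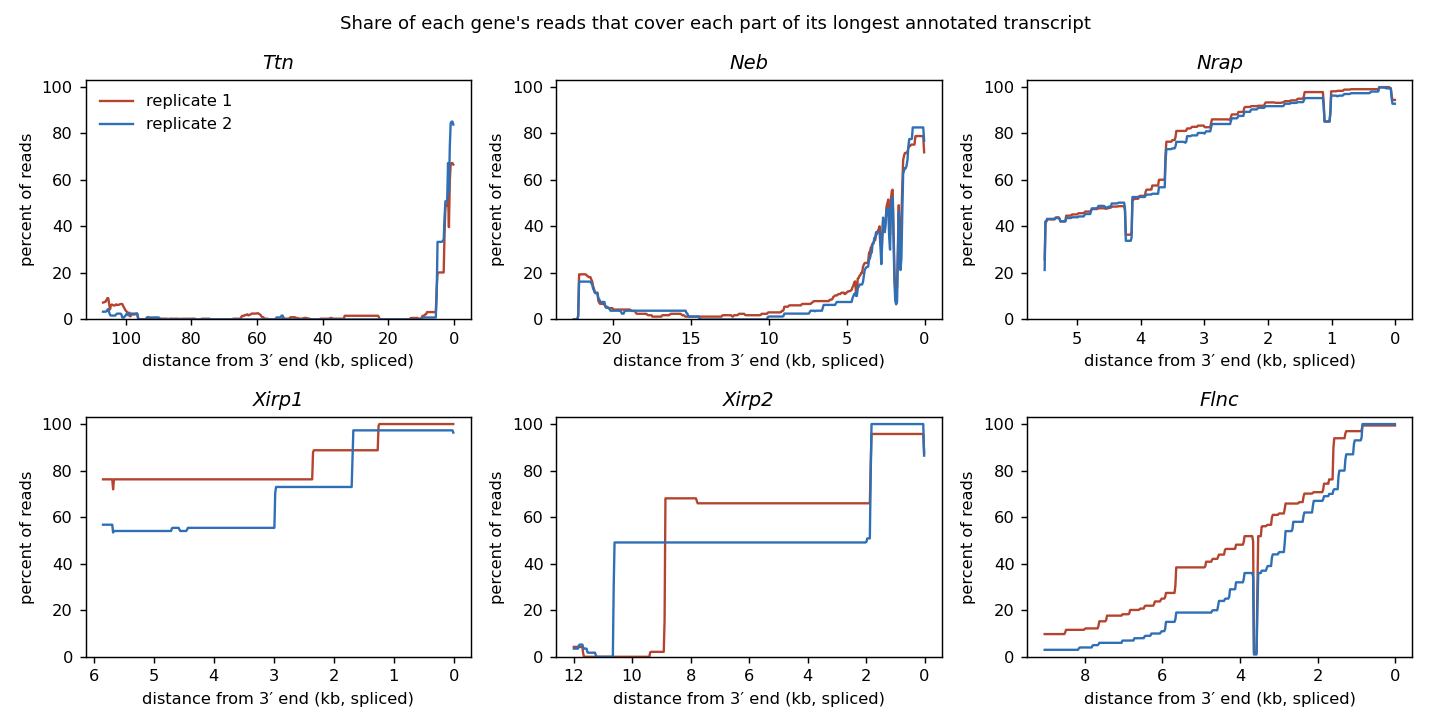
Share of each gene's reads (y axis, percent) over each part of its longest annotated transcript, against the spliced distance from the 3′ end in kb, with the 3′ end at the right. Lines are the 2 libraries. Ttn and Neb are covered mainly at the 3′ end with a smaller rise at the 5′ end, Nrap along its whole length, and the dips in Neb, Nrap and Flnc lie at exons that reads skip.

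Titin was read most deeply at its 3′ end, and no exon in its middle had more than a few reads. The reference Ttn-203 has 347 exons and 106824 nt, on the minus strand of chromosome 2 within positions 76703980 to 76982547 of mm10. The last exon was carried by 213 of 317 reads in replicate 1 (67.2%, Wilson 95% interval 61.8% to 72.1%) and 102 of 120 in replicate 2 (85.0%, 77.5% to 90.3%). Each of exons 341 to 347 was touched, in whole or in part, by 122 to 213 reads in replicate 1 and 60 to 102 in replicate 2. From exon 47 to exon 340 no exon had more than 10 reads in replicate 1 or 2 in replicate 2. In all, 44 and 4 reads touched these 294 exons, against 44 and 10 for exons 1 to 45. Of the 347 exons, 120 had no read in either library. The first intron was carried by 23 and 4 reads, and 0 reads held both ends, so no titin message was seen whole.

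The models of 145 titin reads in replicate 1 and 59 in replicate 2 started in exon 341, and those of 30 and 27 in exon 344. Exon 341 is itself 5437 nt long, but some of the models that started in it touched it only at its edge. Among reads with the last exon, the median model started 2829 nt from the 3′ end in each library. That is the base of exon 341 nearest the 3′ end. The exon was touched by 48.9% of titin reads in replicate 1 and 50% in replicate 2. Further inside it the share fell to 20.2% and 33.3%. The leading model, with 90 and 39 reads, ran from exon 341 to 347 in 6 exons, since the 156-nt intron between exons 341 and 342 was not spliced out. The same chain without exon 346 had 53 and 19 reads and ranked next over both libraries, and a 4-exon chain from exon 344 had 18 and 20. The intervals of the last exon's share did not overlap between the libraries. Single-exon reads in exon 347 made up a further 24 and 13 reads.

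The unspliced intron, chr2:76708620-76708775, was looked at after these models were seen. It is spliced out in Ttn-201 and Ttn-203, and no annotated titin transcript keeps it. Models that run through it held 152 reads in replicate 1 and 60 in replicate 2, and 0 reads in either library had it spliced out. Only 9 and 1 of these reads had an intron further upstream, so that the read itself must cross the unspliced intron. For the others the upstream end is that of the model, and single reads may start in exon 342 or in the intron.

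The exon that the 2 leading chains differ in is exon 346, known as Mex5, an M-band exon described as alternatively spliced between muscles. It is 303 nt long, at chr2:76705670-76705972, and coding. Among reads that spanned it, 120 of 187 held it in replicate 1 (64.2%, 57.1% to 70.7%) and 61 of 86 in replicate 2 (70.9%, 60.6% to 79.5%). Both forms were common in both libraries, and both keep the reading frame. The 3 junctions that tell them apart are shown with 30 bases from either side, in GENCODE M21 reference sequence, with the bases of exon 346 in capitals.
Ttn exons 345 and 346 joined: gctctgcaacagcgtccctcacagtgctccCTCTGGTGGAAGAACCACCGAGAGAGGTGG
Ttn exons 346 and 347 joined: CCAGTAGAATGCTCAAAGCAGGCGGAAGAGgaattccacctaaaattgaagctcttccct
Ttn exons 345 and 347 joined: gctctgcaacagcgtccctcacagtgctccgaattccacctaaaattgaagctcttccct

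At the 5′ end, exons 1 to 10 had 23 to 30 reads each in replicate 1 and 4 to 6 in replicate 2. Exons 11, 12 and 13, each of 138 nt, lie among the Z-disc repeats of titin. Among reads that crossed them from exon 10 to exon 14, 13 of 19 in replicate 1 and 2 of 2 in replicate 2 lacked all of them. The remaining 6 in replicate 1 held exons 12 and 13 without exon 11. Exon 11 did have reads, 5 in replicate 1 and 1 in replicate 2, but none among these crossing reads. Exon 46, of 2646 nt, had 0 reads in both libraries, and the reads that crossed it, 3 in replicate 1 and 1 in replicate 2, skipped it.

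A further set of titin reads ended in the middle of the gene, in the last exon of the short form Ttn-202, a transcript of 45 exons that stops in the I-band part of the gene (the novex-3 form). This exon spans chr2:76913944-76920463. It held 29 of 317 reads in replicate 1 (9.15%, 6.45% to 12.8%) and 8 of 120 in replicate 2 (6.67%, 3.42% to 12.6%). Only 3 and 2 of these reads were spliced to an upstream titin exon. The others, 26 and 6, were single-exon reads of the genomic class, a deposited class for reads without the splicing of a known transcript. For these, the deposited tables do not show which titin form they come from.

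Nebulin too was read from its ends. The reference Neb-202 has 157 exons and 22489 nt, on the minus strand of chromosome 2. In replicate 1, 129 of 165 reads ran to the last exon without the 5′ exons, 31 started at the 5′ end without the last exon, 1 did both and 4 lay inside. Replicate 2 had 66, 13, 0 and 1 such reads of 80. The 5′ reads all began with the first exon of Neb-204, at chr2:52335681-52335762, which is also exon 2 of the reference. That start was carried by 32 reads in replicate 1 (19.4%, 14.1% to 26.1%) and 13 in replicate 2 (16.2%, 9.75% to 25.8%). The first exons of Neb-202, Neb-212 and Neb-213 had 0 reads, which allows up to 3 per library. Whether the 5′ reads come from messages that begin there or lack exon 1 of the reference was not tested. The longest chains had 96 exons in replicate 1 and 76 in replicate 2, so the 1 read with both ends did not hold all 157 exons.

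Few nebulin reads shared an intron chain. The 165 reads of replicate 1 fell into 126 models, 110 of them with 1 read, and the 80 of replicate 2 into 62, 52 with 1 read. Only 16 of 172 chains were found in both libraries, which held 27.9% of Neb reads in replicate 1 and 41.2% in replicate 2. In the other members, reads in chains found in both libraries made up between 75.7% and 100% in replicate 1 and between 80.0% and 95.9% in replicate 2. Over both libraries the leading Neb model was a chain of exons 155 to 157 with 4 and 7 reads. Single-exon reads of exon 157 numbered 6 and 4. A 13-exon chain from the 5′ end had 7 and 2, the most in replicate 1.

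Neb models also started in many different exons, which makes chains differ too, and the parts of starts and of exon choice in this variety were not separated. Of 65 Neb exons measured with 20 or more spanning reads, 18 were variable, with an inclusion of 5% to 95% over both libraries, or 27.7%. The share was 6.0% over the exons of all genes, 10.7% in Ttn and 4.65% in Nrap. All 18 had a length that is a multiple of 3. They included exon 13 near the 5′ end and 5 exons between it and exon 138, but most lay from exon 138 onward, toward the part that codes for the Z-disc end of nebulin. Of the 18, 9 were 93 nt long and stood in a row between exons 145 and 152 of the reference, 6 of them exons 146 to 151. The other 3, called extra exons here, lie between exons 147 and 148. Extra exons 1 and 3 are annotated in other transcripts and extra exon 2, at chr2:52154570-52154662, is not. Extra exon 3 is annotated only in a transcript without a coding sequence. The sequences of the 8 annotated ones are shown because they are near copies of each other. They come from GENCODE M21 on mm10, minus strand, and capitals mark the 56 of 93 positions that all 8 share.
Neb exon 146, chr2:52157832-52157924: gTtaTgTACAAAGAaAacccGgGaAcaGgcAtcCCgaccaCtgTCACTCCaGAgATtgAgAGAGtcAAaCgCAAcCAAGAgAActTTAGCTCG
Neb exon 147, chr2:52157291-52157383: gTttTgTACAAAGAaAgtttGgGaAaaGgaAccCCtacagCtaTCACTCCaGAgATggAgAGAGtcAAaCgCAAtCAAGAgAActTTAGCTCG
Neb extra exon 1, chr2:52156355-52156447: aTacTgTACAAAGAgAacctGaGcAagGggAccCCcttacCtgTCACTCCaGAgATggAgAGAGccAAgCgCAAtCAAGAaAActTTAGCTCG
Neb extra exon 3, chr2:52153683-52153775: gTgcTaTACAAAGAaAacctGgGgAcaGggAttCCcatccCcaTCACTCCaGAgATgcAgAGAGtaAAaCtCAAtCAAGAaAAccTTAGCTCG
Neb exon 148, chr2:52153056-52153148: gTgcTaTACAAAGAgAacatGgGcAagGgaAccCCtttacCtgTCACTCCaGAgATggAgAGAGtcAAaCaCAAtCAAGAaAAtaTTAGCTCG
Neb exon 149, chr2:52151364-52151456: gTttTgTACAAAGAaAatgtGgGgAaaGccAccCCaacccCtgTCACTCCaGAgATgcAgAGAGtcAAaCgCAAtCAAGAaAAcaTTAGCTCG
Neb exon 150, chr2:52150967-52151059: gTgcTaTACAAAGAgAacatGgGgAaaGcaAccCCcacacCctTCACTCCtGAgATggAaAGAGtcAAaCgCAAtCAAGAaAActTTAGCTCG
Neb exon 151, chr2:52150537-52150629: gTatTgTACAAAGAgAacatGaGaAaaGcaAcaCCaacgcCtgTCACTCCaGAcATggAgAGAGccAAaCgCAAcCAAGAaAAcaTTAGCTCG
Over the 28 pairs of these exons, identity ran between 74.2% and 87.1% of bases, with a median of 81.7%.

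Although alike in sequence, the 93-nt exons were used at very different rates. Exon 149 was held by 76 of 97 reads that spanned it in replicate 1 (78.4%, 69.2% to 85.4%) and by 33 of 43 in replicate 2 (76.7%, 62.3% to 86.8%). Exon 151 was in 67 of 107 (62.6%, 53.2% to 71.2%) and 21 of 49 (42.9%, 30% to 56.7%). Exon 150 between them was in 32 of 99 (32.3%, 23.9% to 42%) and 14 of 47 (29.8%, 18.7% to 44%). The exons at the 3′ side of the row were thus used in unequal steps, high, low and high, in replicate 1. In replicate 2 the order of the values was the same, but the intervals of exons 150 and 151 overlapped. Exon 148 was in 19 of 96 reads (19.8%, 13.1% to 28.9%) and 6 of 43 (14%, 6.56% to 27.3%). Extra exon 2, the unannotated one, was in 9 of 96 (9.38%, 5.01% to 16.9%) and 4 of 43 (9.30%, 3.68% to 21.6%), and extra exon 3 in 9 of 96 and 3 of 43. The 3 extra exons had the lowest values of the row in both libraries, but exon 147, in 14 of 93 reads (15.1%, 9.18% to 23.7%) and 5 of 43 (11.6%, 5.07% to 24.5%), was next with overlapping intervals. Whether reads of such similar exons were aligned to the right copy was not tested.

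Where a read crosses the whole row, the exons can be counted together within a single molecule. The row was crossed by 92 of 165 reads in replicate 1 and 42 of 80 in replicate 2, which held a mean of 2.51 and 2.14 of the 9 exons. A single exon was the commonest number, in 37 reads (40.2%) and 20 reads (47.6%). Some 24 of 512 possible patterns were seen, 20 in replicate 1 and 13 in replicate 2, with 9 in both. Exon 149 alone led with 23 and 17 reads, followed by exon 151 alone with 14 and 3. None of the 9 was present in 6 and 7 reads, and all 9 were present in 4 and 1. Exons 146, 149, 150 and 151 together were found in 8 and 3 reads.

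**Figure D3:**
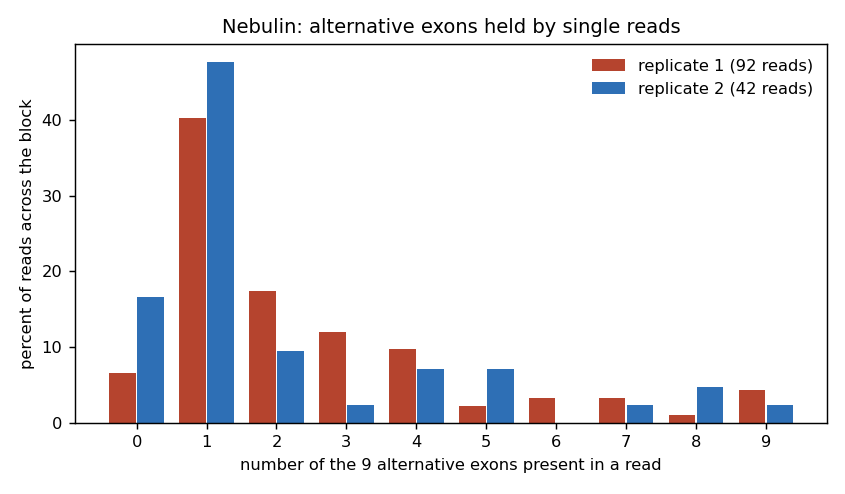
Percent of Neb reads that cross the row of alternative exons (y axis) by the number of its 9 exons that the read holds (x axis), for replicate 1 (92 reads) and replicate 2 (42 reads). Both libraries peak at 1 exon and have a tail of reads up to all 9.

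Further upstream a pair of 105-nt exons were found as alternatives, a pair singled out after its values were seen. Exon 123 was held by 17 of 28 reads that spanned it in replicate 1 and by 6 of 9 in replicate 2. Its neighbour, annotated in other transcripts and absent from the reference, was in 10 of 29 and 3 of 11. Among the 28 and 9 reads that crossed both, 0 held both exons, and 1 read in replicate 1 held neither. A pair of nebulin exons in the super-repeat region has been described as mutually exclusive in human muscle. The sequences of the pair, minus strand, are shown with capitals at the 65 of 105 positions where they differ, an identity of 38.1%.
Neb exon 123, chr2:52186012-52186116: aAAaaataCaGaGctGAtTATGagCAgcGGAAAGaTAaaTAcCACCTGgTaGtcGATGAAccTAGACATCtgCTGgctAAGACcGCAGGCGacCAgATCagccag
Neb alternative to exon 123, chr2:52185271-52185375: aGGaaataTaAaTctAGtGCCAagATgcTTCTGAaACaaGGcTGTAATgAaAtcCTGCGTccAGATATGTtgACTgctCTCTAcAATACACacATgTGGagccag

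Unlike these giants, Nrap was often read whole. Its reference Nrap-202 has 42 exons and 5501 nt, on the minus strand of chromosome 19. All 42 exons had reads in both libraries, and 230 of 563 reads in replicate 1 (40.9%, 36.9% to 45%) and 121 of 287 in replicate 2 (42.2%, 36.6% to 47.9%) carried both the first intron and the last exon. The shares differed by less than their intervals. Models started in exon 1 for 247 and 125 reads, and next most often in exon 18 for 92 and 45 reads. Over both libraries a 25-exon chain from exon 18 to exon 42 was the leading Nrap model, with 78 and 39 reads. The complete Nrap-202 had 69 and 43, and was the higher of these in replicate 2. The next chain, with 55 and 21 reads, was complete but used an unannotated splice site. It had been classed as a new splice site in replicate 1 and as a new combination of known sites in replicate 2, so these classes are not compared between the libraries.

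**Figure D4:**
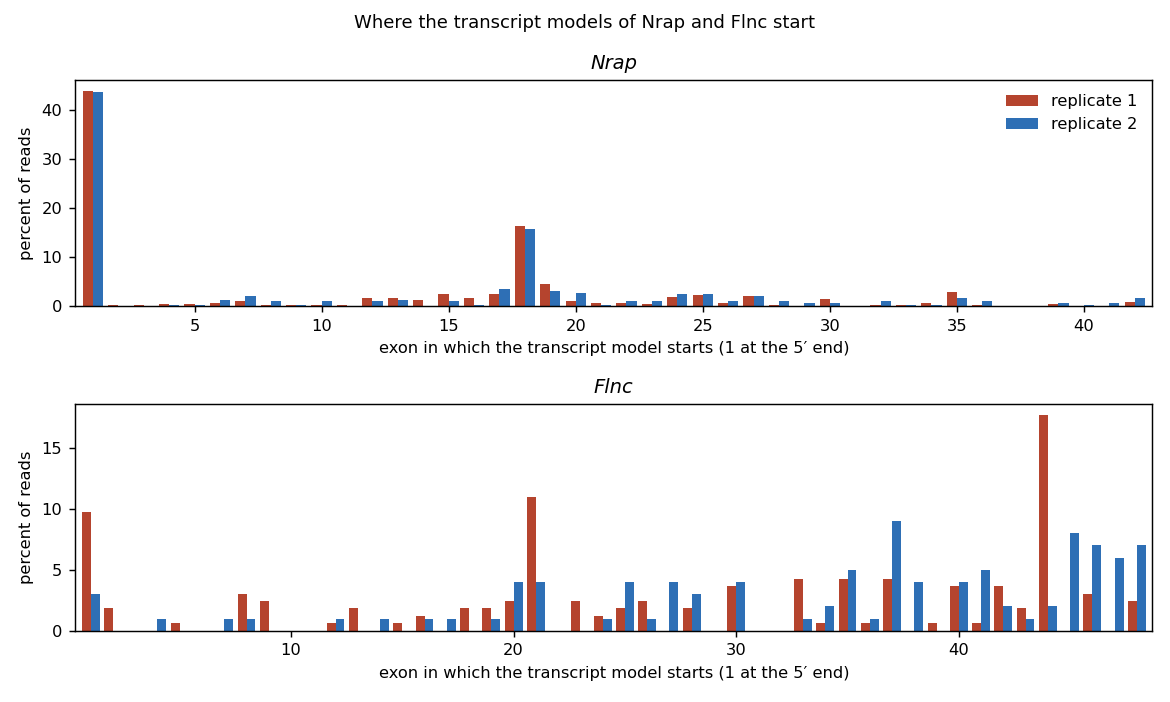
Percent of reads (y axis) by the exon in which their model starts (x axis, 1 at the 5′ end), for Nrap above and Flnc below, in replicate 1 and replicate 2. Nrap reads start mostly in exon 1 and, at 16.3% and 15.7% of reads, in exon 18, while Flnc starts are spread over the gene.

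That splice site is a 3-nt shift of the acceptor before exon 6. The intron chr19:56382365-56384058 as annotated was used by 152 reads in replicate 1 and 75 in replicate 2. The site that adds 3 bases to the exon was used by 105 reads (40.9%, 35% to 47%) and 51 reads (40.5%, 32.3% to 49.2%). Both sites were in wide use at closely matching rates in the 2 libraries. The reading frame is kept by such a shift.

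Nrap had 2 variable exons, both coding, 105 nt long and in frame. Exon 12 was held by 194 of 273 reads across it in replicate 1 (71.1%, 65.4% to 76.1%) and by 94 of 144 in replicate 2 (65.3%, 57.2% to 72.6%). This exon has been described as the difference between the cardiac form of NRAP, which has it, and the skeletal form. Exon 36 was in 476 of 549 reads (86.7%, 83.6% to 89.3%) and 241 of 273 (88.3%, 83.9% to 91.6%). In reads across both, 161 and 85 had both exons, 32 and 8 had exon 12 only, 66 and 43 had exon 36 only, and 13 and 7 had neither. All 4 combinations were thus found in both libraries. The sequences, minus strand, show what the 2 forms gain or lose.
Nrap exon 12, chr19:56374364-56374468: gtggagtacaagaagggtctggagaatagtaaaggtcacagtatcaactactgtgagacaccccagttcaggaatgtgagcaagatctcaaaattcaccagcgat
Nrap exon 36, chr19:56328996-56329100: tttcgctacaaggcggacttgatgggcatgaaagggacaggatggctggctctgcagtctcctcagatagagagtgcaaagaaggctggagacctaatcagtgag

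Xirp1, a gene of 3 exons and 5839 nt on chromosome 9, was also often read whole. Its complete annotated transcript had 34 of 80 reads in replicate 1 (42.5%) and 27 of 74 in replicate 2 (36.5%). The first intron, spliced as annotated, was carried by 45 reads (56.2%, 45.3% to 66.6%) and 31 reads (41.9%, 31.3% to 53.3%), with overlapping intervals. Over both libraries together, single-exon reads of the last exon were next, 9 and 18, and then chains of exons 2 and 3, 10 and 13. In replicate 1 alone, the complete chain with a shorter exon 2 came next, with 14 reads in replicate 1 and 8 in replicate 2. An acceptor 3 bases into exon 2 was used by 16 reads against 45 at the annotated site in replicate 1 (26.2%, 16.8% to 38.4%) and 9 against 31 in replicate 2 (22.5%, 12.3% to 37.5%). The start of exon 2, minus strand, is shown with the 3 bases that this site leaves out in capitals.
Xirp1 exon 2 start, chr9:120019790-120019819: AAGgatggctgatgcccagatgcaggtagc
The version of exon 2 made by this site also met the definition of a variable exon, the 1 such exon of Xirp1. Its inclusion, 14 of 14 reads and 8 of 10, sets it only against reads that skip it. Reads with the annotated acceptor do not enter that count, so it does not measure the choice of acceptor.

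Xirp2 has 9 exons and 11979 nt in its reference, on the plus strand of chromosome 2, of which exon 7 codes for most of the protein. Its leading model ran from exon 7 to exon 9, with 31 of 47 reads in replicate 1 (66.0%) and 28 of 57 in replicate 2 (49.1%). Single-exon reads of the last exon came next, 13 and 26. The first intron was carried by 2 reads in each library, and 0 reads matched a whole annotated transcript. Only 1 Xirp2 exon had enough spanning reads to be measured, and it was not variable.

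Filamin C reads stopped at many points along the message. The reference Flnc-201 has 48 exons and 9038 nt, on the plus strand of chromosome 6, and every exon had reads in both libraries. The last exon was in 163 of 164 reads in replicate 1 and 100 of 100 in replicate 2. The first intron was in 16 reads (9.76%, 6.09% to 15.3%) and 3 reads (3.00%, 1.03% to 8.45%). The median read reached 3901 nt from the 3′ end in replicate 1, 43.2% of the reference, and 2848 nt in replicate 2, 31.5%. Over both libraries the leading model was a 4-exon chain at the 3′ end with 19 and 8 reads. A 27-exon chain from exon 21 had 17 and 4, and the complete Flnc-202 had 15 and 2. In replicate 2 alone, a 12-exon chain from exon 37 led with 9 reads.

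Flnc-202 differs from the reference in lacking exon 31, which codes for a hinge between filamin repeats. The exon is 99 nt long, at chr6:29452799-29452897. It was held by 3 of 85 reads across it in replicate 1 (3.53%, 1.21% to 9.87%) and by 1 of 36 in replicate 2 (2.78%, 0.492% to 14.2%). Nearly all filamin C reads across this point thus lacked this exon in both libraries. The reference sequence of the exon, plus strand, is shown as the stretch these reads leave out.
Flnc exon 31, chr6:29452799-29452897: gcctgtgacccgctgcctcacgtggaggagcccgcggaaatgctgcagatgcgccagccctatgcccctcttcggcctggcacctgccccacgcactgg

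Exon use was compared between the libraries by Fisher's exact test over 1712 variable exons of all genes with 20 or more spanning reads in each. Of these 0.175% were called. Among the 15 member exons tested, 1 in Ttn, 12 in Neb and 2 in Nrap, 0 were called, and 1 had an unadjusted p under 0.05. That was Neb exon 151, higher by 19.8 points in replicate 1 (adjusted p = 0.747). The other 14 differed by between 0.07 and 13.3 points in either direction. The tested Neb exons had at most 49 spanning reads in replicate 2.

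**Figure D5:**
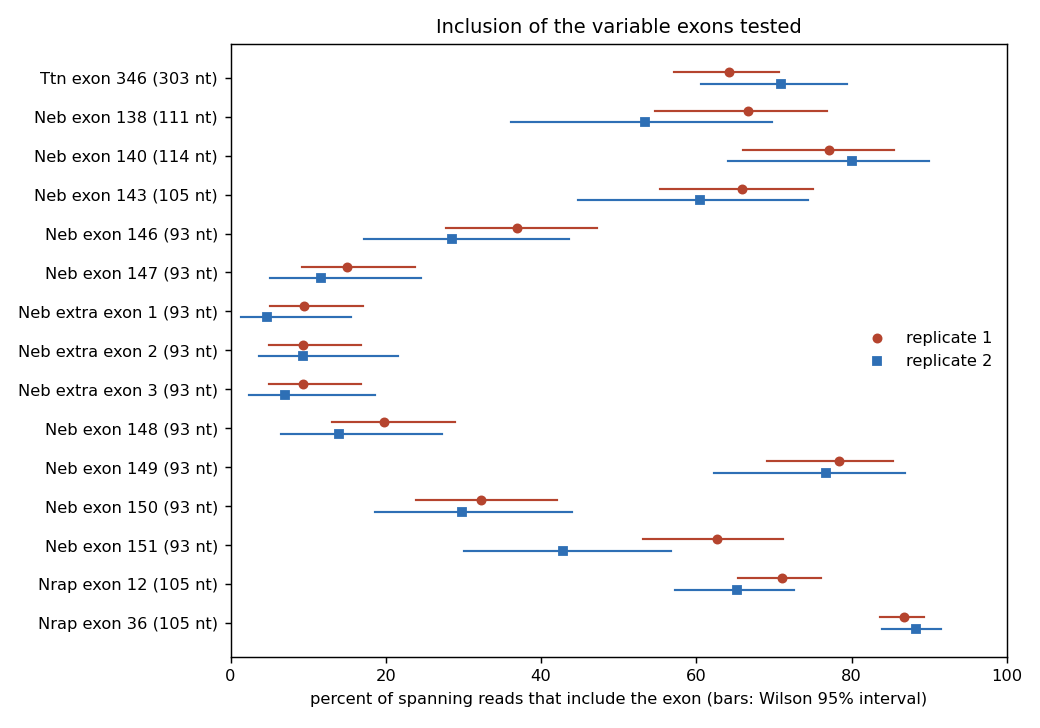
Inclusion of the 15 member exons tested, as the percent of spanning reads that hold the exon (x axis), in replicate 1 (circles) and replicate 2 (squares) with Wilson 95% intervals of counting error. Extra exons are the 93-nt Neb exons outside the reference transcript. In 14 of 15 exons the libraries lie within 13.3 points of each other, and Neb exon 151 is the exception.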

How the data were processed

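Total RNA of 2 gastrocnemius samples was sequenced as long reads, 1 library each, and the labels cite different versions of the pipeline document for the 2 libraries, so tissue sample and document version cannot be told apart. Values are counts as deposited by the authors: raw reads of each transcript model that had any, not normalized. Per the file headers and deposited descriptions, reads were aligned to mm10, models were built against GENCODE M21 and carry TALON classes. For the aligner and its version, nothing is stated. Exon counts, lengths and exon positions of models were taken as deposited by the authors.

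Reads were summed per gene over all models, spike-ins left out, and divided by mouse reads to give CPM. Models were matched between libraries by intron chain and placed on the longest annotated transcript. Exon inclusion was reads with the exon over those plus reads whose intron encloses it. An exon with 20 or more spanning reads and a pooled inclusion of 5% to 95% was variable. Genes with 20 or more reads were tested by an exact conditional binomial test (2-fold), and exon inclusion and incomplete shares by Fisher's exact test (10 points), with Benjamini-Hochberg adjustment over all features at 0.05. Each test was first tested on simulated data. With 1 library on each side, p-values measure counting error, and Wilson 95% intervals likewise. PCR copies are not independent molecules.

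The members and lists were chosen with earlier results of these data known. The rule for names took all 6 members, the 2 nearest genes, up to 3 models and up to 6 variable exons per member, and the 2 highest genes of each list described. A gene that this rule names is not reported here. Sequences are C57BL/6J reference sequence, and allele differences were not analysed here. Python 3.11.15, scipy 1.17.1, edgeR 4.0.16 and DESeq2 1.42.0 (for scaling) were used.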

Additional observations from a re-analysis of the deposited data

Results flagged for a closer look

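Reads on the strand opposite to 3 of the genes, which the comparisons above do not use, exceeded the 3 reads that a count of 0 allows. Over Ttn there were 18 antisense reads in replicate 1 and 21 in replicate 2, beside 317 and 120 sense reads. Over Neb there were 26 and 18, beside 165 and 80. Over Nrap there were 4 in replicate 1 and 0 in replicate 2. Over the whole libraries, reads of unannotated antisense models numbered 17235 in replicate 1 and 15807 in replicate 2, 1.5% and 1.68% of mouse reads. Nearly all of those over Ttn and Neb were single-exon reads: 16 and 19 over Ttn, and 24 and 18 over Neb. How the strand of unspliced reads was assigned was not tested.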

How the results depend on the processing

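No paired analysis was possible because the data hold 1 group, with no second group to share replicate numbers. Of 27 alternatives for the counts of called members and of variable exons, 22 stayed within 1.5 times. With an expected share set per length bin 0 members were called, with annotated models only 0 of the 2 members then tested, and without the fold limit 3, namely Ttn, Neb and Nrap. The other alternatives called 1 member, Ttn, whose log2 ratio ran between 0.74 and 1.12 over 10 alternatives. Xirp1, not called, had -0.17, against 0.13 with annotated models only and 0.09 without the genomic class. The tests of exon inclusion and incomplete share called 0 members under every alternative run. Variable exons numbered 24, against 69 with a minimum of 10 spanning reads and 15 with a minimum of 50, and between 16 and 24 with 1 library left out. These minima change which exons are counted. The median reach of Ttn reads, from the 3′ end of the gene to the start of the model, was 5152 nt, and 2829 nt without replicate 1. This median includes reads that lie elsewhere in the gene. Among reads with the last exon it was 2829 nt in each library. Counting the first intron of any annotated transcript as a start gave 54.7% for Neb instead of 0, since short annotated transcripts begin inside the gene. Depth limits exon counts in Ttn outside its 3′ end, where no exon between 47 and 340 exceeded 10 reads.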

Other observations

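The largest exon of the reference, exon 309, is 17106 nt long, and had 7 reads in replicate 1 and 0 in replicate 2. Single-exon reads at the 3′ ends, a pattern chosen after its values were seen, numbered 24 and 13 in the last exon of Ttn, 9 and 18 in that of Xirp1, 13 and 26 in that of Xirp2, and 6 and 4 in that of Neb. These were a smaller share of reads in replicate 1 than in replicate 2 in each of the 4 genes: 7.57% and 10.8% in Ttn, 11.2% and 24.3% in Xirp1, 27.7% and 45.6% in Xirp2, and 3.64% and 5.0% in Neb. Differences of these shares were not tested.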
